A study of Eonycteris spelaea and Mus musculus with 51 samples.

Results

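The genes described here are 8 well-known targets of the glucocorticoid receptor: Fkbp5, Tsc22d3, Ddit4, Zbtb16, Sgk1, Klf9, Pdk4 and Cebpd. They were chosen as known targets, with earlier results of these data known. All 8 were found among the 40840 gene rows of the mouse count table. The bat table names its 30017 rows mostly by human Ensembl identifiers, and there the same genes are ENSG00000096060 (FKBP5), ENSG00000157514 (TSC22D3), ENSG00000168209 (DDIT4), ENSG00000109906 (ZBTB16), ENSG00000118515 (SGK1), ENSG00000119138 (KLF9), ENSG00000004799 (PDK4) and ENSG00000221869 (CEBPD). The study asked how a bat, Eonycteris spelaea, responds to heat compared with the mouse, and sequenced bulk RNA from blood, lung and muscle of both. Control animals were untreated, heat animals were sampled straight after a whole-animal heat shock of 1 h, and recovery animals were left for 4 h after the same shock. Strain, sex, age and heating temperature are not in the labels, and the labels give no unheated group matched in time to the recovery groups. Each of the 18 groups had 3 libraries, except the 3 groups of mouse blood with 2 each, which makes 27 bat and 24 mouse libraries. The labels do not say that replicates were separate animals, so p-values measure only the spread between these libraries.

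Glucocorticoids are steroid hormones, chiefly corticosterone in the mouse and cortisol in humans, that the adrenal gland releases under stress. They bind a receptor held ready in the cytoplasm by heat shock protein 90 and its co-chaperones. The bound receptor moves to the nucleus and switches on target genes within the hour, some in nearly every tissue. Several of the 8 also answer to other signals: DDIT4 to low oxygen and to the unfolded protein response, PDK4 to fasting, CEBPD to inflammation, SGK1 to osmotic stress. Hormone levels were not measured here.

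Library totals ran from 17092519 to 54493918 counts in the mouse and from 9287883 to 33272414 in the bat. Every one of the 8 genes passed the filter on low counts in each species and tissue. Levels are given as CPM, a count scaled for sequencing depth, here on library totals adjusted by the TMM method. Changes are log2 differences from edgeR's quasi-likelihood test, with adjusted p-values (Benjamini-Hochberg) over all genes of the species and tissue, and a gene is called changed at an adjusted p under 0.05. Markers of lung epithelium summed to between 15160 and 17630 CPM in mouse lung and to at most 8.56 CPM in the other tissues, and markers of muscle fibres to at least 173100 CPM in mouse muscle. In mouse lung the muscle-fibre markers summed to 3596 CPM in control library 1, against 618 to 1832 CPM in the other lung libraries. In mouse blood, control library 3 and heat library 2 stood apart from their partners. Their markers of monocytes and macrophages summed to 1495 and 2423 CPM against 660 and 544 CPM. Their red-cell markers summed to 398800 and 368700 CPM against 570900 and 903000 CPM. The TMM factors of these libraries were 1.38 and 1.40 against 1.08 and 0.757, so the sums are not shares of the raw totals. Markers could not be checked in the bat table, because no table used here pairs its human identifiers with symbols. In bulk tissue, fewer cells of a type and less RNA per cell cannot be told apart.

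In the mouse, most of the 8 genes stood higher right after heat in all 3 tissues, and in blood and lung most stood at or below the control level 4 h later. In lung 5 of 8 rose, namely Fkbp5, Tsc22d3, Ddit4, Klf9 and Cebpd, where 3.14% of all tested genes rose. In muscle 1 of 8 rose, Cebpd, where 0.293% of all genes did. In blood 0 of 8 were called, as were 0% of all genes. There 5 of 8 had an unadjusted p under 0.05 in edgeR, as did 2355 of the 15869 genes tested. DESeq2 called 4 of 8 in blood and 610 of all genes. The median log2 change of the 8 was 1.60 in lung, 0.95 in muscle and 1.09 in blood, beside -0.01, -0.05 and 0.02 over all tested genes. Every heat library lay above every control library for 6 of the 8 in blood, 6 in lung and 5 in muscle. The share of all genes with that pattern was 20.5%, 12.7% and 16.1%. These counts are on TMM-adjusted totals. On plain totals the control and heat libraries of Sgk1 and Zbtb16 overlapped in blood.

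**Figure D1:**
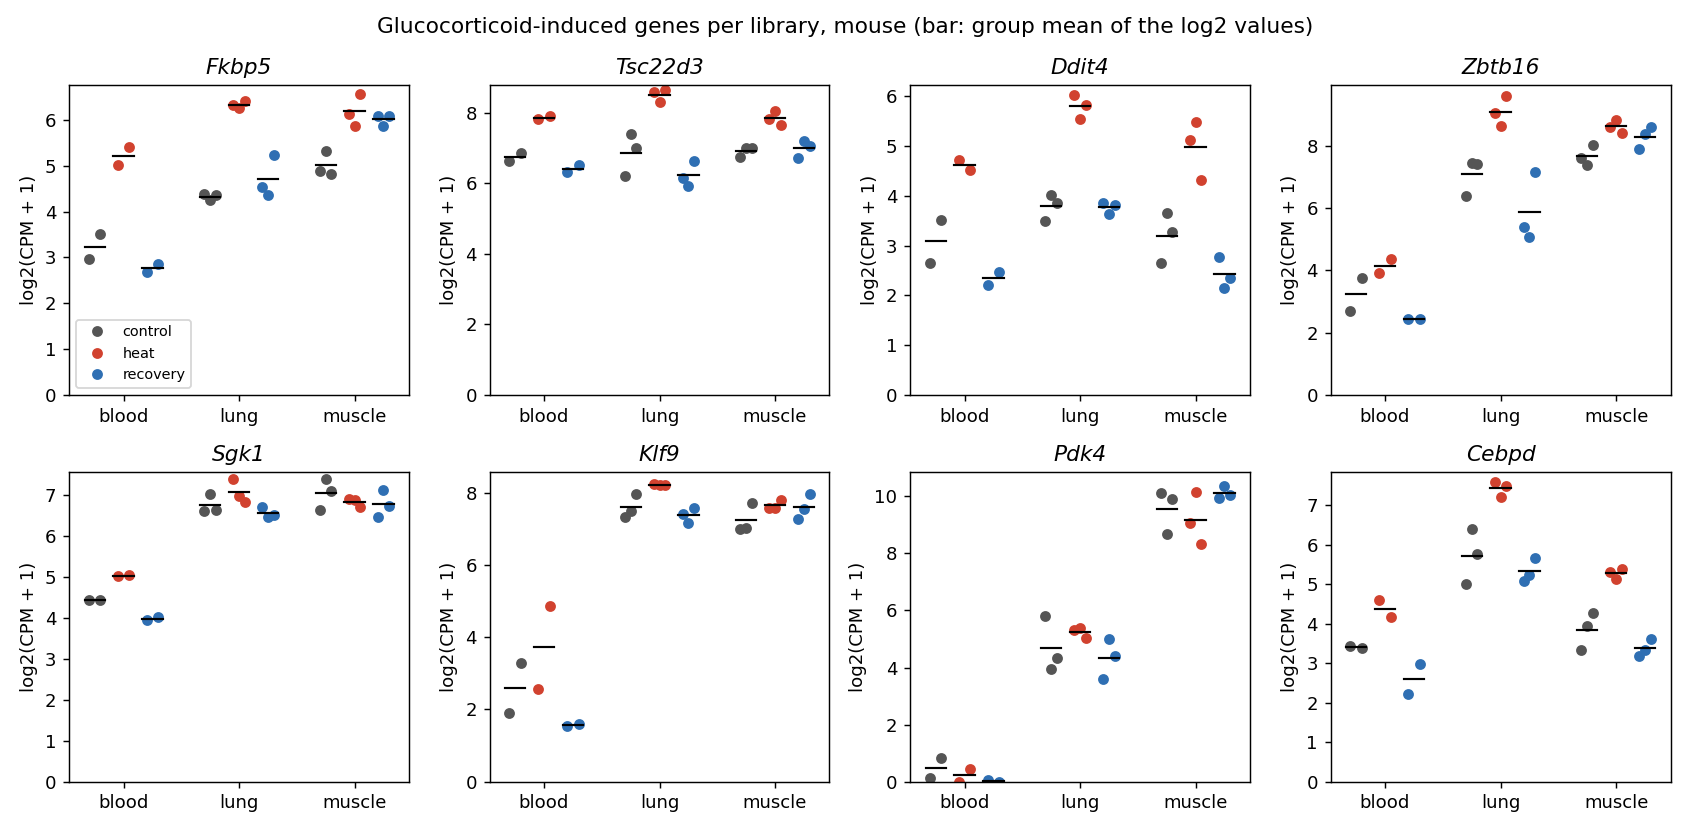
Level of each of the 8 genes in every mouse library, as log2(CPM + 1), by tissue. Grey points are control, red points heat and blue points recovery libraries (2 per group in blood, 3 in lung and muscle), and bars mark the group mean of the log2 values. In lung the heat libraries of Fkbp5, Tsc22d3, Ddit4, Zbtb16, Klf9 and Cebpd all sit above their control libraries.

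Fkbp5 encodes a co-chaperone of the receptor that lowers its affinity for hormone, and is widely used as a readout of receptor activity. In mouse lung the control libraries held 19.8, 18.0 and 19.6 CPM, the heat libraries 79.1, 75.5 and 84.3 CPM, and the recovery libraries 22.3, 19.5 and 36.5 CPM. All heat libraries were high and close together, apart from both other groups, and recovery library 3 was the highest of its group. Fkbp5 rose 4.16-fold with heat (log2 change 2.06 ± 0.19 SE, edgeR adjusted p = 0.00123) and fell between heat and recovery by 1.61 on the log2 scale (± 0.19 SE, edgeR adjusted p = 0.00162). Both calls held in all 15 other settings tried. In muscle the control libraries held 28.7, 39.3 and 27.5 CPM, the heat libraries 69.0, 57.2 and 94.2 CPM, and the recovery libraries 67.3, 57.4 and 67.1 CPM. Here the recovery libraries stayed within the range of the heat libraries and above all controls. The log2 change against control was 1.21 ± 0.21 SE at heat (edgeR adjusted p = 0.0528) and 1.01 ± 0.20 SE at recovery (edgeR adjusted p = 0.270), so neither was called. The heat change passed the threshold in 7 of 15 other settings, among them those without heat library 2 (1.36, adjusted p = 0.0389) or recovery library 1 (1.21, 0.0193), and the recovery change passed with DESeq2 (adjusted p = 0.00157). In blood the values were 6.81 and 10.4 CPM in control, 31.7 and 41.7 CPM in heat, and 5.46 and 6.20 CPM in recovery. The 3 groups did not overlap, with heat on top. The heat change was 2.09 ± 0.24 SE on the log2 scale, a 4.27-fold difference that was not called (edgeR adjusted p = 0.0800). It was called without heat library 1 or 2 (2.28 and 1.88, adjusted p = 0.04999 and 0.0180), with no filter (0.00229), in one fit of the 3 tissues (0.000912) and by DESeq2 (6.36e-11). Between heat and recovery Fkbp5 fell by 2.66 in blood (± 0.25 SE, edgeR adjusted p = 0.0270).

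Tsc22d3 encodes GILZ, a leucine zipper protein that mediates part of the anti-inflammatory action of glucocorticoids. In mouse lung the control libraries held 72.1, 166 and 126 CPM, the heat libraries 381, 314 and 400 CPM, and the recovery libraries 70.0, 59.9 and 97.3 CPM. Heat libraries were all above the controls, which spread widely among themselves. Recovery libraries 1 and 2 were below every control, and recovery library 3 lay inside the control range. Tsc22d3 rose 3.01-fold (log2 change 1.59 ± 0.31 SE, edgeR adjusted p = 0.0323) and then fell by 2.27 (± 0.32 SE, edgeR adjusted p = 0.00739). The rise lost its call without control library 3 (1.62, adjusted p = 0.115), heat library 1 (1.56, 0.0880), heat library 3 (1.52, 0.112) or recovery library 1 (1.59, 0.0562), and with no filter (0.0669). In muscle Tsc22d3 went from 105, 127 and 126 CPM in control to 227, 263 and 201 CPM in heat and to 104, 146 and 132 CPM in recovery. The heat libraries stood clear of both other groups, and the change of 0.95 ± 0.17 SE was just short of a call (edgeR adjusted p = 0.0528); it passed without control library 3 (0.99, 0.0495) or recovery library 1 (0.95, 0.0168), with no filter (0.0329), in one fit of the 3 tissues (0.0121) and by DESeq2 (1.53e-05). In blood it went from 97.4 and 115 CPM to 224 and 237 CPM and then to 78.1 and 90.7 CPM. The step at heat was 1.12 ± 0.16 SE (edgeR adjusted p = 0.0927, not called, but 0.0209 without heat library 2, 0.00146 with no filter and 9.41e-09 by DESeq2), and between heat and recovery Tsc22d3 fell by 1.45 (± 0.16 SE, edgeR adjusted p = 0.0270).

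Ddit4 encodes REDD1, an inhibitor of the growth kinase complex mTORC1. Of the 19438 genes tested in mouse lung it had the smallest p both at heat and between heat and recovery. Its lung libraries held 10.3, 15.1 and 13.6 CPM in control, 64.5, 45.9 and 55.8 CPM in heat, and 13.4, 11.5 and 13.1 CPM in recovery. Heat libraries were far above the rest, and the recovery libraries lay inside the control range. Ddit4 rose 4.26-fold (log2 change 2.09 ± 0.15 SE, edgeR adjusted p = 0.000307) and fell by 2.13 (± 0.16 SE, edgeR adjusted p = 0.000175), calls that held in all 15 other settings. In muscle it stood at 5.26, 11.6 and 8.72 CPM in control, 33.8, 43.7 and 19.0 CPM in heat, and 5.81, 3.45 and 4.08 CPM in recovery. All heat libraries exceeded all controls, and 2 of the 3 recovery libraries were below every control. The heat difference of 1.92 ± 0.38 SE was not called (edgeR adjusted p = 0.0619, or 0.0225 without recovery library 1, 0.00178 in one fit of the 3 tissues and 4.45e-05 by DESeq2), whereas Ddit4 fell by 2.85 between heat and recovery (± 0.39 SE, edgeR adjusted p = 0.0375). That fall lost its call without any 1 control or recovery library or without heat library 1 (adjusted p from 0.0549 to 0.163, changes from -3.09 to -2.76), and with the replicate block (0.104). In blood the values were 5.28 and 10.4 CPM, then 25.2 and 21.8 CPM, then 3.60 and 4.57 CPM. The heat difference was 1.58 ± 0.33 SE (edgeR adjusted p = 0.139, not called, but 0.0457 in one fit of the 3 tissues and 0.000821 by DESeq2), and Ddit4 fell by 2.53 afterwards (± 0.34 SE, edgeR adjusted p = 0.0329).

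The 3 transcription factors among the 8 are Cebpd, Klf9 and Zbtb16. Cebpd encodes C/EBP delta, which also takes part in acute-phase and inflammatory responses. In mouse lung it went from 31.3, 83.0 and 53.4 CPM in control to 190, 147 and 178 CPM in heat and to 32.7, 36.9 and 49.96 CPM in recovery. Every heat library was above every library of the other groups. Cebpd rose 3.08-fold (log2 change 1.62 ± 0.34 SE, edgeR adjusted p = 0.0403) and fell by 2.11 (± 0.35 SE, edgeR adjusted p = 0.0127). In muscle it went from 9.01, 14.3 and 18.2 CPM to 38.5, 34.2 and 41.0 CPM and to 8.05, 9.06 and 11.3 CPM, again with the heat libraries apart. There it rose 2.74-fold (log2 change 1.46 ± 0.24 SE, edgeR adjusted p = 0.0485) and fell by 2.00 (± 0.25 SE, edgeR adjusted p = 0.0263). In blood it stood at 9.72 and 9.48 CPM, then 23.1 and 17.0 CPM, then 3.62 and 6.93 CPM, a difference at heat of 1.06 ± 0.31 SE (edgeR adjusted p = 0.221, not called) and a fall of 1.94 afterwards (± 0.33 SE, edgeR adjusted p = 0.0433). The calls at heat were kept in 7 of 15 other settings in lung and in 7 of 15 in muscle, with changes from 1.34 to 2.02 and from 1.22 to 1.71. In lung the rise was lost without control library 3, heat library 1 or 3 or any 1 recovery library (adjusted p from 0.0537 to 0.142), with no filter (0.0791) and with the replicate block (0.0580), and the fall without recovery library 1 or 2 (0.0594 and 0.0560). In muscle the rise was lost without control library 1 or 2, any 1 heat library or recovery library 2 or 3 (0.0599 to 0.199) and with the replicate block (0.0932), and the fall without control library 2, heat library 1 or 3 or any 1 recovery library (0.0563 to 0.149). In blood the fall is among those treated below. The gene's exons overlap those of Spidr on the opposite strand, and the counting's strand setting is not given, so reads of that stretch may belong to either.

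Klf9 encodes a Krüppel-like repressor that takes part in hormone and circadian control. In mouse lung its control libraries held 160, 179 and 251 CPM, its heat libraries 303, 294 and 297 CPM, and its recovery libraries 170, 142 and 189 CPM. The heat libraries were close together and above all controls. Klf9 rose 1.51-fold (log2 change 0.60 ± 0.15 SE, edgeR adjusted p = 0.0491), the smallest called change of the 5, and fell by 0.83 (± 0.15 SE, edgeR adjusted p = 0.00995). The rise was kept in 5 of 15 other settings; it was lost without control library 1 (0.47, adjusted p = 0.140) or 2 (0.53, 0.133), without any 1 heat library (0.58 to 0.60, 0.0593 to 0.176) and without any 1 recovery library (0.59, 0.0566 to 0.0811), with no filter (0.0894) and in one fit of the 3 tissues (0.722). The fall was lost without heat library 3 (-0.84, adjusted p = 0.0533) and in one fit of the 3 tissues (-0.84, 0.431). In muscle the groups overlapped, with 127, 129 and 208 CPM in control and 190, 189 and 222 CPM in heat, a difference of 0.37 ± 0.24 SE (edgeR adjusted p = 0.297). In blood Klf9 was 2.73 and 8.67 CPM in control and 4.94 and 28.1 CPM in heat, and its high values were in control library 3 and heat library 2, which also had the high monocyte markers; their part in the result was not tested. The blood difference of 1.53 ± 0.92 SE was not called and ranged from -0.21 to 2.59 when single libraries were left out.

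Zbtb16 encodes PLZF, a zinc finger factor that is hardly expressed in many cell types until glucocorticoid is given. In mouse lung it went from 83.2, 173 and 172 CPM in control to 533, 402 and 778 CPM in heat and to 41.1, 32.9 and 144 CPM in recovery. The heat libraries were all high, and recovery library 3 stood well above its partners. The heat difference was 4.00-fold, but was not called (log2 change 2.00 ± 0.66 SE, edgeR adjusted p = 0.134). It passed with DESeq2 (adjusted p = 0.0293) and without recovery library 3 (2.00, adjusted p = 0.0439). Between heat and recovery Zbtb16 fell by 2.97 (± 0.69 SE, edgeR adjusted p = 0.0429), a call kept in 6 of 15 other settings. It was lost without any 1 control library (-2.97, 0.0590 to 0.0738), any 1 heat library (-3.17 to -2.69, 0.0514 to 0.0983) and recovery library 1 or 2 (-2.69 and -2.62, 0.132 and 0.105), and with no filter (0.0663). In muscle it was 197, 165 and 258 CPM in control, 394, 459 and 341 CPM in heat, and 239, 335 and 391 CPM in recovery. Heat libraries were above all controls, recovery libraries overlapped both groups, and the heat difference of 0.95 ± 0.23 SE was not called (edgeR adjusted p = 0.0831, or 0.0252 without recovery library 1 and 0.00318 by DESeq2). In blood Zbtb16 was 5.54 and 12.4 CPM in control, 14.1 and 19.7 CPM in heat, and 4.43 and 4.46 CPM in recovery, with a heat difference of 0.91 ± 0.39 SE (edgeR adjusted p = 0.359).

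The 2 kinases, Sgk1 and Pdk4, were not called by edgeR at heat in any mouse tissue. Sgk1 encodes a kinase that controls ion channels and cell survival. Its mouse lung libraries overlapped, with 95.4, 129 and 98.0 CPM in control and 166, 124 and 112 CPM in heat (log2 change 0.32 ± 0.16 SE, edgeR adjusted p = 0.242), and in muscle it was 98.1, 165 and 135 CPM against 117, 116 and 102 CPM (-0.25 ± 0.22 SE, edgeR adjusted p = 0.434). In blood the groups were apart on TMM-adjusted totals, at 20.5 and 20.6 CPM, then 31.2 and 31.9 CPM, then 14.2 and 15.1 CPM. On plain totals control and heat overlapped, at 22.1 and 28.4 CPM against 23.6 and 44.7 CPM. The difference at heat was 0.62 ± 0.10 SE (edgeR adjusted p = 0.107, not called, but 0.0396 without heat library 2, 0.0374 with no filter and 0.000920 by DESeq2), and Sgk1 then fell by 1.11 (± 0.10 SE, edgeR adjusted p = 0.0270). Pdk4 encodes a kinase that shuts off pyruvate dehydrogenase and so spares glucose during fasting. It was abundant and variable in mouse muscle, at 1106, 412 and 962 CPM in control, 531, 1125 and 321 CPM in heat and 982, 1302 and 1048 CPM in recovery, with overlapping groups. In lung Pdk4 was 54.7, 14.5 and 19.1 CPM in control and 39.1, 40.3 and 31.7 CPM in heat. Its 54.7 CPM was in control library 1, which also had the highest muscle-fibre markers of the lung libraries. Their part in that value was not tested. In blood Pdk4 was at most 0.790 CPM in any library. It was called in none of the mouse comparisons.

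Per kilobase of exon, where genes can be compared within a tissue, Ddit4 and Fkbp5 were the lowest of the 8 in control mouse lung, at 7.40 and 2.02 CPM per kb, and Klf9 was the highest at 40.9. After heat Zbtb16 and Tsc22d3 led, at 108 and 84.1 CPM per kb. In control muscle Pdk4 stood at 235 CPM per kb, and the next was Zbtb16 at 39.1. In control blood Tsc22d3 stood at 24.5 CPM per kb, and none of the other 7 exceeded the 4.47 of Ddit4.

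After 4 h of recovery 0 of the 8 genes were called against control in any mouse tissue. The share of all genes called in either direction was 0% in blood, 0.0309% in lung and 0.0676% in muscle. At an unadjusted p under 0.05 there were 4, 1 and 4 of the 8 in edgeR, and DESeq2 called 0, 0 and 1. Over all 15869, 19438 and 17746 genes tested, the counts were 1417, 1388 and 879 at that p and 62, 122 and 114 by DESeq2. In blood all 8 were below both controls in both recovery libraries, a pattern shared by 26.8% of all genes there, and their median log2 change was -0.91. Among cell markers there, all 7 red-cell and all 4 platelet markers were above both controls in both recovery libraries (median log2 changes 0.88 and 1.02). Of 8 monocyte markers 6 were below (median of the 8, -1.51), and none of these markers was called by edgeR. Of all genes, 25.2% were above both controls in both recovery libraries and 26.8% below. Red-cell markers summed to 768400 and 914000 CPM in recovery, platelet markers to 1782 and 1919 CPM against 1253 and 597 CPM in control, and monocyte markers to 443 and 671 CPM; their part in the result was not tested. Between heat and recovery, a comparison that shares its heat libraries with the one above, 5 of 8 fell in blood, 6 in lung and 2 in muscle. Over all genes the share that fell was 2.7%, 5.84% and 0.186%. The 5 falls in blood were all lost without either control library or either recovery library (adjusted p from 0.0658 to 0.315), although their sizes stayed between -2.74 and -1.06.

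A call in one mouse tissue and not in another did not amount to a tested difference. In joint edgeR fits of muscle with lung and of blood with lung, 0 of the 8 differed in the heat change (0.0328% and 0.0615% of all genes called) and 0 in the recovery change (0.0469% and 0.0284%). At an unadjusted p under 0.05 there were 1 and 0 of the 8 for heat and 2 and 2 for recovery. The share of all genes at that p was not computed for these fits. The heat change of Fkbp5 was smaller in muscle than in lung by 0.85 on the log2 scale (95% interval of the difference -1.48 to -0.22, edgeR adjusted p = 0.168). DESeq2 was not run on these differences. The joint fits used 1 spread per gene for both tissues. Fitted alone, the common coefficient of variation was 0.161 in lung, 0.263 in blood and 0.338 in muscle.

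Other genes that glucocorticoids raise were read from a list of 38. In mouse lung 14 of the 38 rose with heat and 0 fell, where 3.14% of all tested genes rose and 2.72% fell, with a median log2 change of 0.46 over the list. Among them were Nfkbia, the inhibitor of NF-kB (0.88 ± 0.10 SE, edgeR adjusted p = 0.00157), Arrdc2 (1.07 ± 0.14 SE, 0.00361), the transcription factor Foxo3 (0.85 ± 0.13 SE, 0.00799) and glutamine synthetase, Glul (0.70 ± 0.11 SE, 0.00799). Between heat and recovery 14 of 38 fell in lung, where 5.84% of all genes fell and 5.46% rose, led by Nfkbia (-1.12 ± 0.10 SE, edgeR adjusted p = 0.000196), Foxo3 (-1.07 ± 0.13 SE, 0.00157), Arrdc2 (-0.98 ± 0.14 SE, 0.00232) and Cdkn1a, an inhibitor of the cell cycle (-1.95 ± 0.25 SE, 0.00415). In blood 31 of the 38 were tested and 0 were called at heat; 7 then fell, where 2.7% of all genes did, led by the clock gene Per1 (-1.90 ± 0.11 SE, edgeR adjusted p = 0.0240), the phosphatase gene Dusp1 (-2.93 ± 0.20 SE, 0.0240), Nfkbia (-1.40 ± 0.13 SE, 0.0270) and the amino acid transporter gene Slc38a2 (-1.38 ± 0.16 SE, 0.0270). In muscle 2 of 38 rose at heat, where 0.293% of all genes did, the metallothionein gene Mt1 (2.85 ± 0.33 SE, edgeR adjusted p = 0.0270) and Nfil3 (2.16 ± 0.30 SE, 0.0323). At recovery in muscle Mt1 (3.21 ± 0.33 SE, edgeR adjusted p = 0.0154) and Mt2 (4.48 ± 0.46 SE, 0.0154) were above control, and Mt2 rose further between heat and recovery (3.14 ± 0.43 SE, 0.0371), where 0.282% of all genes rose. Metallothioneins also answer to metals and to heat itself.

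**Figure D2:**
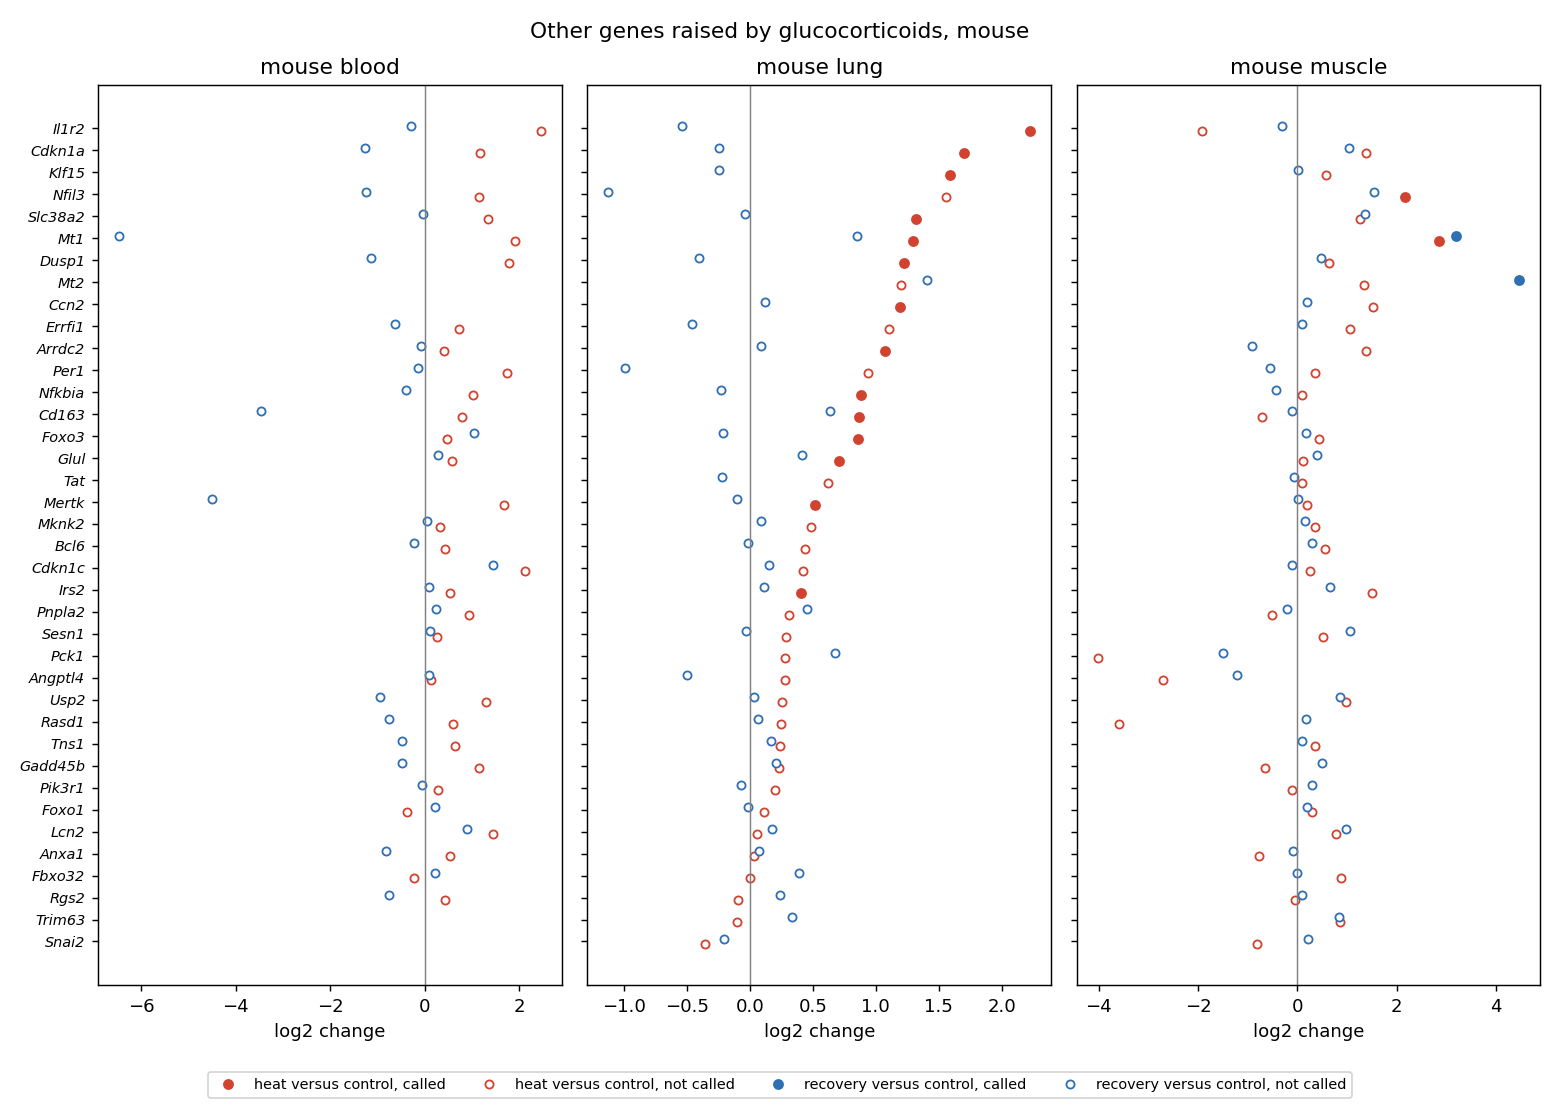
Log2 change of 38 other glucocorticoid-raised genes in mouse blood, lung and muscle, ordered by the heat change in lung (horizontal axis, log2 change against control; red, heat; blue, recovery; filled, called by edgeR; open, not called; genes not tested in a tissue have no point). In lung 14 points are filled at heat and 0 at recovery, and in muscle Mt1 and Mt2 are the filled points at recovery.

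The receptor gene was not called by edgeR at heat in any mouse tissue. Nr3c1, the glucocorticoid receptor gene, averaged 270 CPM in control, 263 CPM in heat and 254 CPM in recovery in lung, and 165, 207 and 168 CPM in muscle. In blood Nr3c1 averaged 60.2, 104 and 50.8 CPM, and it fell between heat and recovery (-1.03 ± 0.16 SE, edgeR adjusted p = 0.0339). Nr3c2, the mineralocorticoid receptor gene, averaged 33.1, 29.7 and 39.6 CPM in lung and rose between heat and recovery (0.42 ± 0.08 SE, edgeR adjusted p = 0.0103). Hsd11b1, whose enzyme regenerates active hormone inside cells, averaged 106, 124 and 105 CPM in lung, 10.9, 3.63 and 7.21 CPM in muscle, and 5.88, 4.34 and 5.74 CPM in blood, with no call. Hsd11b2, whose enzyme inactivates the hormone, averaged 1.10, 1.19 and 1.33 CPM in lung and was too low to be tested in muscle and blood. Abcb1a, a drug and steroid efflux pump gene, fell in blood between heat and recovery (-1.37 ± 0.25 SE, edgeR adjusted p = 0.0477). None of the other genes of this list of 8 was called.

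The chaperones that hold the receptor, and its co-factors Ncoa1, Ncoa2, Ncor1 and Nrip1, were read from a further list. Of 10 chaperone and co-factor genes, 6 rose in lung, where 3.14% of all genes did, led by Ptges3 (0.75 ± 0.11 SE, edgeR adjusted p = 0.00657), Hsp90ab1 (1.303 ± 0.18 SE, 0.00710), Fkbp4 (1.23 ± 0.18 SE, 0.00984) and Hspa8 (1.66 ± 0.25 SE, 0.0123). Between heat and recovery 6 fell in lung, where 5.84% of all genes did. In muscle 2 of 10 rose, where 0.293% of all genes did, Hsp90aa1 (3.64 ± 0.47 SE, edgeR adjusted p = 0.0270) and Stip1 (1.87 ± 0.26 SE, 0.0312). In blood 4 of 10 fell between heat and recovery, where 2.7% of all genes did, namely Ptges3, Stip1, Hspa8 and Fkbp4 (edgeR adjusted p of at most 0.0307). The chaperone genes named by these calls are also direct targets of the heat shock factor HSF1, so the list is not specific to the receptor.

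Targets of other signals that can raise some of the 8 were read in the same way. Over all genes 3.14% rose and 2.72% fell at heat in lung, and 5.46% rose and 5.84% fell there afterwards. In blood 1.29% rose and 2.7% fell between heat and recovery. Of 8 genes of fasting and fatty acid use, 0 were called in any mouse tissue or comparison in edgeR. Of 8 hypoxia genes, 1 fell at heat in lung, Pdk1 (-0.60 ± 0.09 SE, edgeR adjusted p = 0.00604); Pdk1 (0.54 ± 0.09 SE) and Ankrd37 (1.12 ± 0.29 SE) rose there between heat and recovery. Of 6 genes of the integrated stress response, Sesn2 rose at heat in lung (0.67 ± 0.17 SE, edgeR adjusted p = 0.0420), and Ddit3 and Sesn2 fell afterwards. In blood Chac1, Sesn2 and Atf3 fell between heat and recovery (log2 changes -3.28, -1.15 and -3.17), as did Slc2a1 and Vegfa (-0.85 and -2.702) among the hypoxia genes, while Pdk1 rose by 1.07. Of the C/EBP and inflammation genes, Cebpb rose in lung at heat (0.83 ± 0.20 SE, edgeR adjusted p = 0.0477) and Lif fell (-1.56 ± 0.28 SE, 0.0120); both went back between heat and recovery (Cebpb -1.07, Lif 1.38), and Socs3 fell in blood (-1.67 ± 0.27 SE, 0.0390).

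Markers of white cells also shifted in the mouse, in more than one direction. At heat in lung, where the median log2 change of the 8 genes was 1.60, that of B-cell markers was -0.86. It was -0.54 for T and NK markers, -0.06 for markers of monocytes and macrophages, and 0.78 for neutrophil markers. In mouse lung the 10 B-cell markers summed to between 211 and 243 CPM in control, 124 and 141 CPM in heat and 116 and 242 CPM in recovery, and 5 of the 10 fell with heat, beside 2.72% of all genes, among them Cd79b, Ms4a1, Fcrla and Fcer2a. Markers of T and NK cells summed to 96.2 to 112 CPM in control and 68.2 to 81.1 CPM in heat, with 3 of 15 falling (Cd8a, Gzma and Cd3e). Neutrophil markers summed to 71.8 to 95.4 CPM in control, 86.1 to 223 CPM in heat and 42.5 to 115 CPM in recovery, and Cxcr2, Csf3r, Mmp9 and S100a9 fell between heat and recovery. In blood the neutrophil sums were 426 to 471 CPM, then 746 to 917 CPM, then 230 to 338 CPM. That was the same order of groups as for Fkbp5, Tsc22d3 and Ddit4. Of the 11 tested markers 3 fell between heat and recovery (Csf3r, Cxcr2 and Mmp9), where 2.7% of all genes did. Of the blood's 10 B-cell markers 2 rose between heat and recovery, beside 1.29% of all genes, and of its 15 T and NK markers 1 rose and 1 fell. In muscle the B-cell sums were 57.4 to 219 CPM in control, 2.01 to 21.6 CPM in heat and 1.04 to 372 CPM in recovery. The adipocyte sums were 284 to 1397 CPM, 52.5 to 336 CPM and 268 to 983 CPM, with no marker called. Control libraries 1 and 2 and recovery library 1 had B-cell sums of 219, 158 and 372 CPM. Their adipocyte sums were 1004, 1397 and 983 CPM, and their muscle-fibre sums 183400, 173100 and 178200 CPM. The other muscle libraries, among them all heat libraries, had at most 57.4 CPM of B-cell and 368 CPM of adipocyte markers. Their muscle-fibre sums were at least 280700 CPM. The part of these shifts in the changes of the 8 genes was not tested. In mouse lung Kdr, an endothelial marker, fell at heat by 0.37 and rose afterwards by 0.34, and Ccr2, a monocyte marker, rose between heat and recovery by 1.83.

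In the bat, none of the 8 genes was called right after heat in any tissue. edgeR called 0 of 8 in blood, lung and muscle, where it called 0%, 0% and 0.0376% of all genes. In muscle same-numbered control and heat libraries varied together, and with the replicate block 63 genes were called there instead of 6, with 0 of the 8 among them. At an unadjusted p under 0.05 there were 1, 0 and 1 of the 8, and DESeq2 called 0 in each. Over all 16038, 19149 and 15950 genes tested, the counts were 351, 1662 and 2840 at that p and 0, 19 and 855 by DESeq2. The median log2 change of the 8 was -0.41 in blood, -0.18 in lung and -0.12 in muscle, beside 0.00, -0.03 and 0.02 over all genes. FKBP5 in bat lung was 295, 218 and 219 CPM in control, 243, 159 and 206 CPM in heat, and 308, 115 and 199 CPM in recovery. The groups overlapped throughout, and the heat difference was -0.27 ± 0.31 SE (95% interval -0.97 to 0.43). DDIT4 in bat lung was 218, 169 and 230 CPM in control and 222, 211 and 131 CPM in heat (-0.13 ± 0.33 SE, 95% interval -0.87 to 0.61), and CEBPD was 99.5, 102 and 256 CPM against 106, 130 and 104 CPM (-0.42 ± 0.36 SE, 95% interval -1.22 to 0.38). Both pairs of groups overlapped, and the sign of either change turned when single libraries were left out (-0.26 to 0.090 for DDIT4 and -0.65 to 0.17 for CEBPD).

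**Figure D3:**
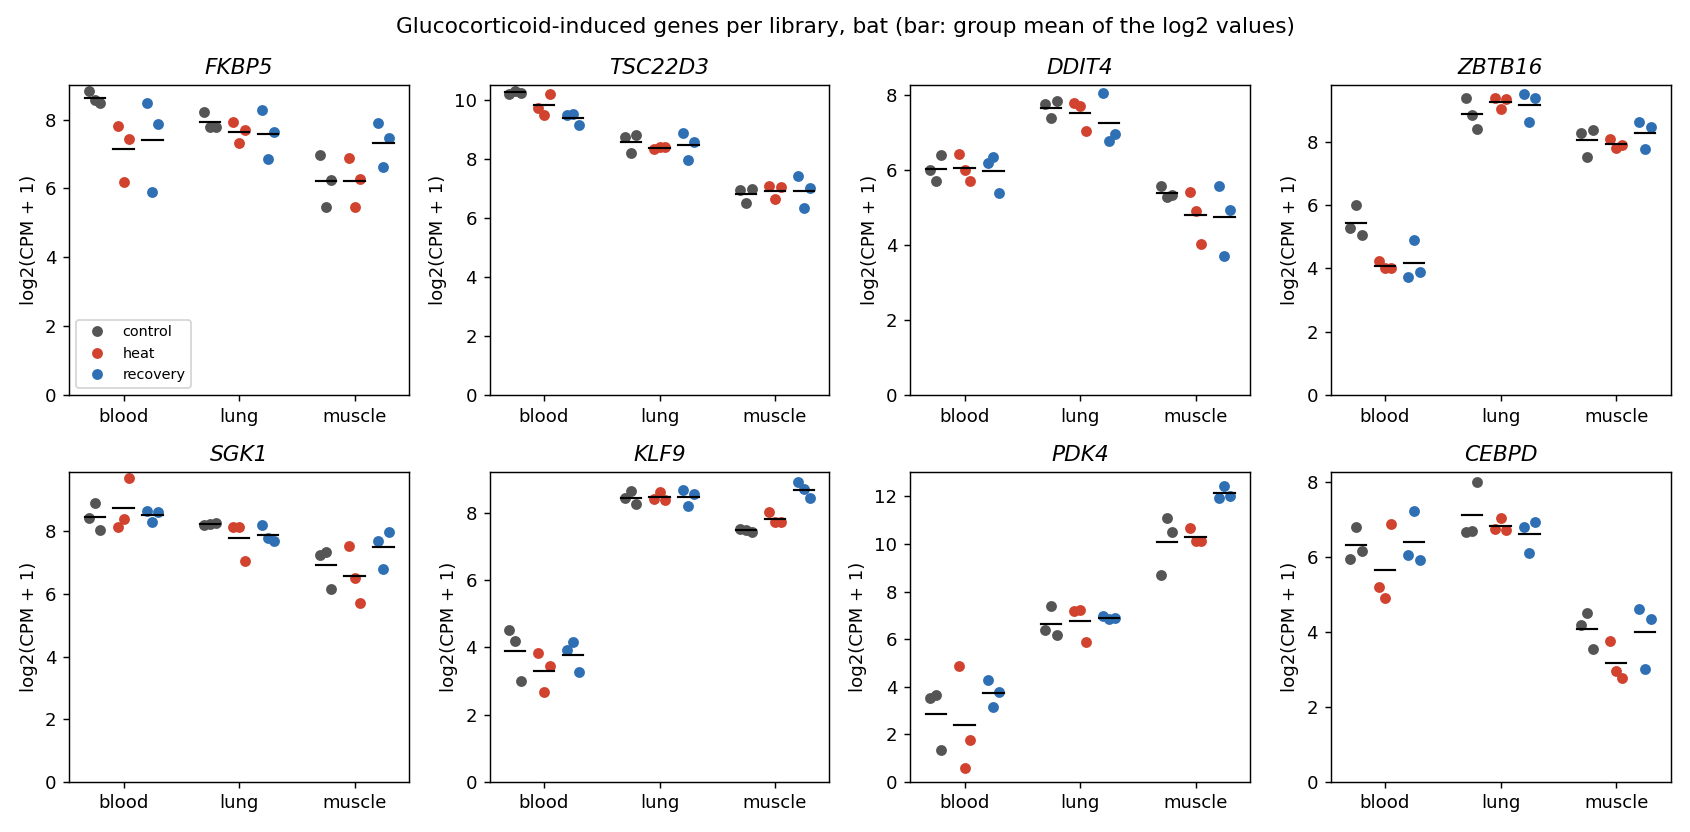
Level of each of the 8 genes in every bat library, as log2(CPM + 1), by tissue. Grey points are control, red points heat and blue points recovery libraries (3 per group), and bars mark the group mean of the log2 values. In muscle the recovery libraries of KLF9 and PDK4 sit above all control libraries; in blood the heat libraries of ZBTB16 and FKBP5 sit below all control libraries.

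In bat muscle FKBP5 was 123, 43.4 and 75.1 CPM in control and 117, 43.0 and 75.9 CPM in heat, nearly the same 3 values and a difference of -0.04 ± 0.47 SE (95% interval -1.10 to 1.03). Its sign turned when single libraries were left out (-0.46 to 0.41). DDIT4 was 47.2, 38.4 and 39.2 CPM in control and 42.0, 29.3 and 15.4 CPM in heat (-0.53 ± 0.46 SE), and CEBPD was 17.2, 21.5 and 10.7 CPM against 12.6, 6.78 and 5.78 CPM (-0.97 ± 0.46 SE, edgeR adjusted p = 0.294). In bat blood FKBP5 was 456, 377 and 358 CPM in control, 222, 72.4 and 173 CPM in heat and 354, 58.5 and 235 CPM in recovery. ZBTB16 was 37.3, 63.0 and 32.0 CPM in control, 17.7, 15.1 and 15.2 CPM in heat and 12.2, 28.9 and 13.7 CPM in recovery. Heat libraries of both genes lay below all controls, but the differences of -1.35 ± 0.61 SE and -1.47 ± 0.43 SE were not called (edgeR adjusted p of 1.00 for both). TSC22D3 in bat blood was 1177, 1261 and 1203 CPM in control, 846, 717 and 1178 CPM in heat and 720, 730 and 569 CPM in recovery. SGK1 in bat blood was 345, 482 and 261 CPM in control and 281, 335 and 838 CPM in heat, where 1 library was high.

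The bat's only called change among the 8 genes in these comparisons came late and in muscle. KLF9 was 184, 182 and 172 CPM in control, 262, 214 and 212 CPM in heat, and 486, 419 and 352 CPM in recovery. The 3 groups did not overlap. KLF9 rose 2.34-fold from control to recovery (log2 change 1.23 ± 0.15 SE, edgeR adjusted p = 0.00814), where 1.17% of all genes rose and 2.67% were called in either direction. The call held in 14 of 15 other settings and was lost in 1 fit of the 3 tissues together (1.22, adjusted p = 0.119). PDK4 was 415, 2169 and 1456 CPM in control, 1636, 1102 and 1116 CPM in heat, and 3956, 5589 and 4135 CPM in recovery. All recovery libraries were above all others, as they were above control for 2 of the 8 genes and for 13.7% of all genes, yet the 3.39-fold difference was not called (1.76 ± 0.49 SE, edgeR adjusted p = 0.0860; DESeq2 adjusted p = 0.00173). FKBP5 in recovery was 238, 96.9 and 176 CPM, with library 2 inside the control range (1.08 ± 0.48 SE, edgeR adjusted p = 0.222). With the replicate block FKBP5 was called (1.11, adjusted p = 0.00632), although same-numbered control and recovery libraries correlated at 0.0468 to 0.213, not all above the 0.1 set for pairing. In bat blood and lung 0 of 8 were called at recovery, where 0% and 0.047% of all genes were. At an unadjusted p under 0.05 there were 2 and 0 of the 8, beside 849 and 3090 of the 16038 and 19149 genes tested. DESeq2 called 0 of the 8 there, beside 92 and 910 of all genes. Between heat and recovery edgeR called 0 of 8 in blood, lung and muscle (0%, 0.125% and 0.00627% of all genes). At an unadjusted p under 0.05 there were 0, 0 and 3 of the 8, and DESeq2 called 0, 0 and 2. Over all 16038, 19149 and 15950 genes tested, the counts were 1670, 2161 and 1670 at that p and 119, 449 and 211 by DESeq2.

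The late rise of KLF9 differed between bat muscle and lung. In bat lung KLF9 was 349, 408 and 307 CPM in control and 418, 297 and 377 CPM in recovery, with overlapping groups, and the joint edgeR fit gave a difference, muscle minus lung, of 1.14 (95% interval 0.66 to 1.62, adjusted p = 0.0377). That fit used 1 spread per gene for both tissues. Fitted alone, the common coefficient of variation in the bat was 0.295 in muscle, 0.343 in lung and 0.536 in blood. Of all genes 1.23% were called in the comparison of muscle with lung. The call was lost without any of 11 single libraries (adjusted p from 0.0508 to 0.101, differences from 1.02 to 1.24). The 11 were lung heat 2 and 3, muscle heat 2, each lung recovery and muscle control library, and muscle recovery 1 and 2. For the heat change 0 of 8 differed between muscle and lung (0.00504% of all genes) and 0 between blood and lung (0%), and for the recovery change 0 of 8 between blood and lung (0.005%). At an unadjusted p under 0.05 there were 0, 1 and 2 of the 8 in these comparisons in edgeR. The share of all genes at that p was not computed, and DESeq2 was not run on these comparisons.

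The bat's control libraries held more of most of the 8 than the mouse's in blood and lung. The 2 species' tables were scaled separately and the bat transcripts' lengths are not known here, so the levels are set side by side with no test. In mouse control blood the red-cell markers alone summed to 570900 and 398800 CPM. These sums are on TMM-adjusted totals and are not shares of the raw totals. The red-cell share of bat blood is not known here, and its part in the gap was not tested. FKBP5 averaged 397 ± 52.0 CPM (SD, n = 3) in bat blood, 244 ± 44.2 in lung and 80.6 ± 40.2 in muscle, against 8.59, 19.1 and 31.8 CPM for Fkbp5 in control mice. Every bat control library was above every mouse control library for 7 of the 8 genes in blood, 8 in lung and 2 in muscle. They were above every mouse heat library for 7 in blood, 5 in lung and 0 in muscle. The share of other gene pairs with these patterns was not computed, so the counts are not shown to be particular to the 8.

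The difference between the species in the heat change was tested by a joint edgeR fit over gene pairs. That fit used 1 spread per gene for both species. Fitted alone, the common coefficient of variation was 0.161 in mouse and 0.343 in bat lung. It was 0.263 and 0.536 in blood, and 0.338 and 0.295 in muscle. The effect of this on the intervals and adjusted p-values was not tested. Only 652 pairs could be formed, the 8 genes and 644 whose bat row carries a mouse identifier, and 53 to 84 of them passed the filter, so the adjusted p-values rest on few genes, chosen neither at random nor before values were seen. In lung 4 of the 8 differed, where 15.5% of the tested pairs did, and 11.8% without the 8. The differences, bat minus mouse, were -2.33 for Fkbp5 (95% interval -3.28 to -1.37, adjusted p = 0.00280), -2.22 for Ddit4 (-3.16 to -1.28, 0.00280), -2.05 for Cebpd (-3.18 to -0.92, 0.0217) and -1.81 for Tsc22d3 (-2.78 to -0.85, 0.0198). In blood 2 of the 8 differed, where 3.08% of pairs did and 0% without the 8: Fkbp5 by -3.44 (-5.27 to -1.62, 0.0373) and Tsc22d3 by -1.53 (-2.27 to -0.78, 0.0369). In muscle 2 differed, where 9.43% of pairs did and 6.67% without the 8: Ddit4 by -2.44 (-3.85 to -1.03, 0.0242) and Cebpd by -2.43 (-3.70 to -1.16, 0.0242). For Zbtb16 the difference was -1.67 in lung, -2.38 in blood and -1.13 in muscle without a call (adjusted p = 0.118, 0.119 and 0.0883); it passed in lung without mouse recovery 3 (0.0394), in blood without bat recovery 2 (0.0387) and in muscle without bat control 2 (0.0365). For recovery against control 0 of the 8 differed in any tissue and 0% of pairs did. At an unadjusted p under 0.05 there were 0, 0 and 1 of the 8 in blood, lung and muscle. The share of pairs at that p was not computed, and DESeq2 was not run.

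**Figure D4:**
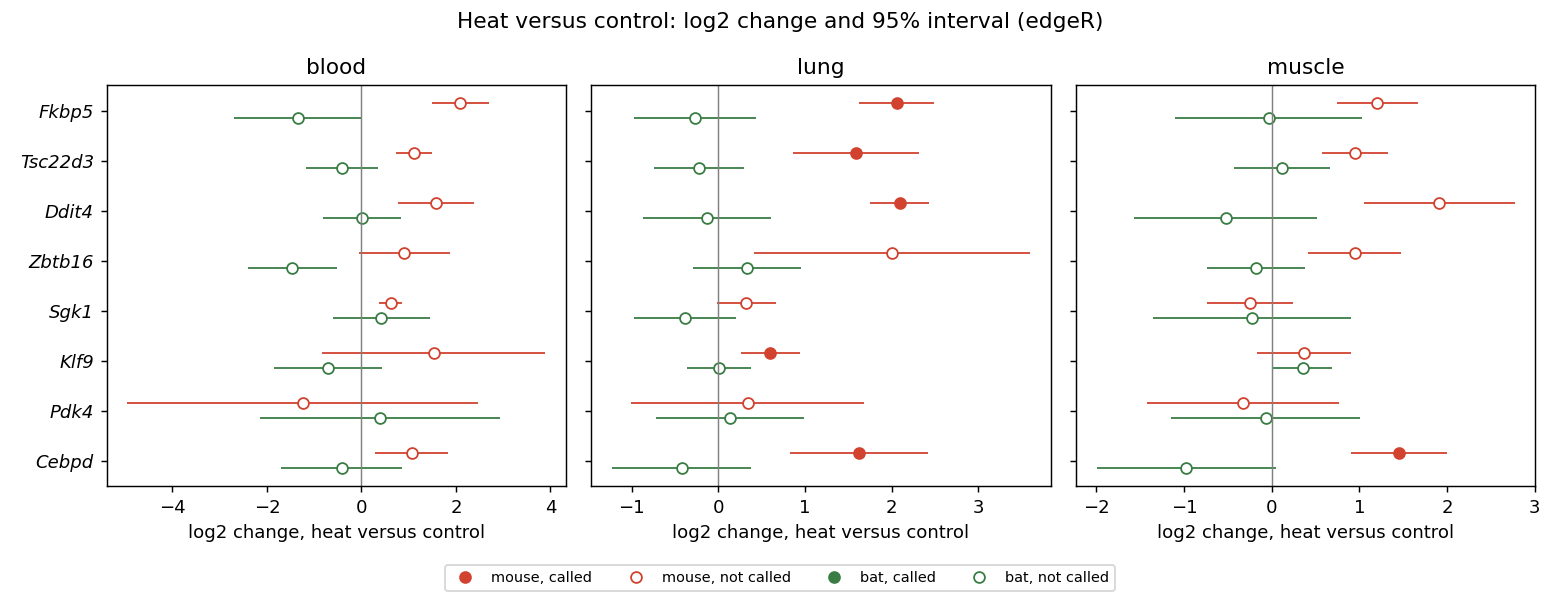
Log2 change from control to heat in mouse (red) and bat (green) with 95% intervals, by tissue; filled points were called by edgeR, open points were not. In lung the mouse points of Fkbp5 and Ddit4 lie near 2.06 and 2.09 and the bat points at -0.27 and -0.13.

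**Figure D5:**
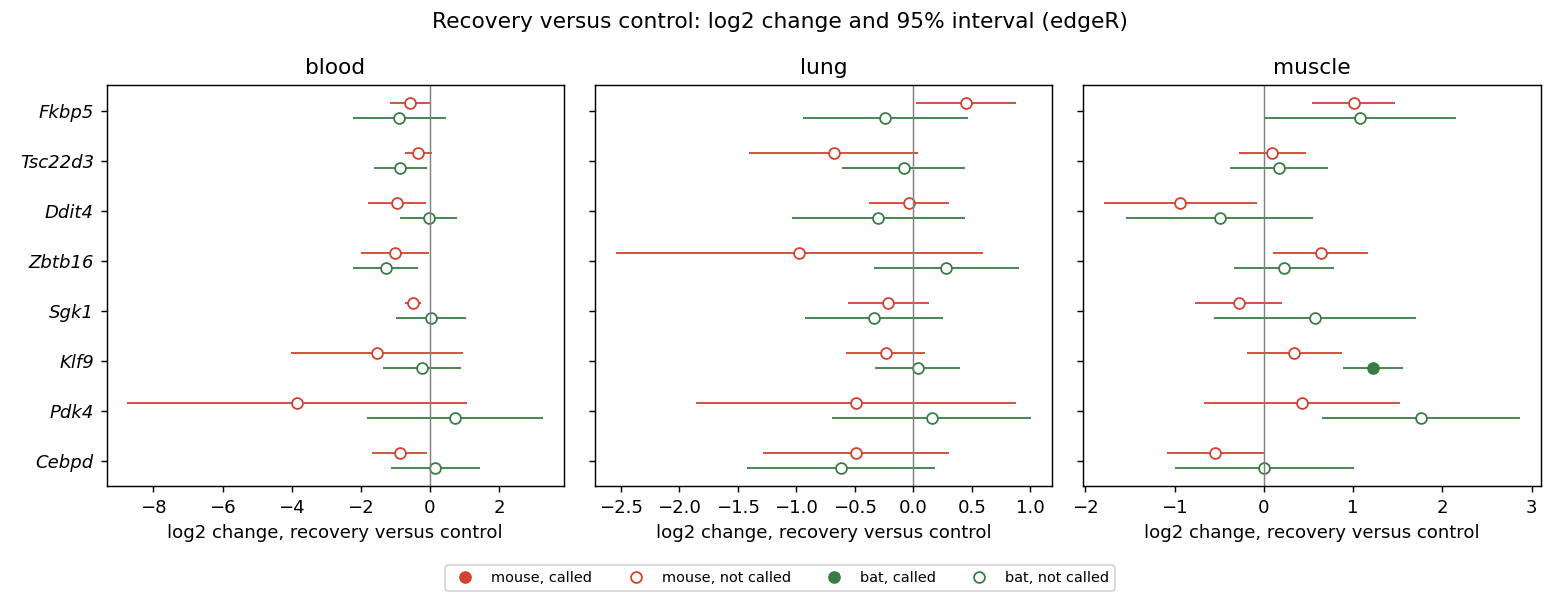
Log2 change from control to recovery in mouse (red) and bat (green) with 95% intervals, by tissue; filled points were called by edgeR, open points were not. Bat Klf9 in muscle, at 1.23, is the filled point, and the mouse has none.

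The lung differences of Fkbp5 and Ddit4 held in all 19 other settings. The rest were lost when single libraries were left out. In lung Tsc22d3 was lost without mouse control 1 or 3 or mouse heat 1 or 3 (-1.84 to -1.54, adjusted p from 0.0518 to 0.0572). Cebpd was lost there without those 4 or bat control 3 or bat heat 3 (-2.02 to -1.45, 0.0503 to 0.0580). In muscle the call of Ddit4 was lost without bat control 1 or 3, bat heat 2 or 3, mouse control 1 or 2 or mouse heat 2 (-2.73 to -2.16, 0.0505 to 0.0791), and that of Cebpd without bat heat 2 or 3, mouse control 1 or 2 or mouse heat 2 (-2.50 to -2.20, 0.0505 to 0.0716). In blood the call of Fkbp5 was kept in 5 of 16 other settings and that of Tsc22d3 in 7 of 16, and both calls were lost without any 1 mouse library and without bat control 1 or 2 or bat heat 2, that of Fkbp5 also without bat heat 3 or bat recovery 3 (adjusted p from 0.0511 to 0.349; differences from -3.78 to -3.11 and from -1.65 to -1.39).

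Among the genes whose levels ran most like Fkbp5 over the 24 mouse libraries, each centred on the mean of its tissue, were the chaperone genes St13 (Pearson r = 0.92), Stip1 (0.92) and Chordc1 (0.91), with Ssh2 (0.91) and Pcf11 (0.91) making up the first 5 of 13975 genes. Tsc22d3, the first of the other 7, had r = 0.81 and rank 100, and Pdk4 had r = 0.13. In the bat, over 27 libraries and 13644 genes, the most alike rows were ENSG00000197111 (r = 0.74) and ENSG00000119929 (0.71), and TSC22D3 was the first of the 7, with r = 0.58 and rank 61. All values in such a correlation share libraries and depth, and Stip1 and Chordc1 are known targets of the heat shock factor.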

How the data were processed

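Per the labels' protocols, TRIzol extracts were used with a directional NEBNext kit. The authors deposited raw counts per gene, 1 table per species; the submitters' processing notes name STAR 2.7, featureCounts and the mouse build GRCm39, and the bat's assembly, the annotations and the strand setting are not given in the sources used here. Samples were grouped by the labels. Each species and tissue was fitted alone in edgeR 4.0.16 (R 4.3.3; filterByExpr with at least 10 counts and 15 in total, TMM, robust quasi-likelihood test without a block), and DESeq2 1.42.0 was an alternative. 95% intervals are from the edgeR fits. Exon lengths are from GENCODE M21 on GRCm38, used for lengths and overlaps only. The 8 genes and all lists were chosen with earlier results of these data known, so no count over a list is independent support. From each list the called genes were named, at most 4 per comparison with the smallest p; the 2 receptor and 2 enzyme genes were always named, as were the 8 genes and, in the mouse, the 5 genes most like Fkbp5. The test between species departed from the plan, which foresaw it only with a table that pairs human identifiers with symbols: the pairs were chosen after the values were seen. Bat rows with human identifiers other than the 8 were given no gene name. Among comparisons that share more than 1 number, the deviations of same-numbered libraries all correlated above 0.1 in 2. These were bat muscle control with heat (0.22 to 0.268) and bat blood control with recovery (0.262 to 0.419). There the numbers were taken as pairs from the data, since the labels do not say what a number marks. Mouse blood control and heat share only number 1, at 0.691. Control 3 and heat 2 correlated equally, since 2 libraries per group deviate in mirror image, so pairing could not be read there. In the remaining comparisons same-numbered libraries did not all correlate above 0.1 (for example -0.379 to 0.00729 in mouse muscle, heat with recovery). No 2 libraries of one group agreed within sampling noise. The edgeR and DESeq2 fits, and the edgeR fits of differences between tissues and species, were tested on simulated data. For the differences these data were drawn with 1 spread per gene for both tissues or both species. They therefore do not show how the joint fits behave where the spreads differ. Alternatives were RLE scaling, no filter, leaving out the 10 largest rows, the replicate block, one fit of the 3 tissues, plain totals and leaving out each library.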

Additional observations from a re-analysis of the deposited data

Results flagged for a closer look

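The 9 results below were marked because the same contrast differed between 2 groups by a test of the difference. In lung the heat change, bat minus mouse on the log2 scale, was -2.33 for Fkbp5, -2.22 for Ddit4, -2.05 for Cebpd and -1.81 for Tsc22d3. In blood the difference was -3.44 for Fkbp5 and -1.53 for Tsc22d3, and in muscle -2.44 for Ddit4 and -2.43 for Cebpd. These 8 rest on edgeR fits over 53 to 84 gene pairs, chosen after values were seen, and all but those of Fkbp5 and Ddit4 in lung were lost when single libraries were left out. For KLF9 in the bat the change from control to recovery was larger in muscle than in lung by 1.14, a call also lost when single libraries were left out. Groups of 2 or 3 libraries are too small to test single libraries for standing apart.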

How the results depend on the processing

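The number of the 8 genes called, with the value first printed in brackets, was as follows. Mouse blood at heat (0) gave 3 with no filter, 4 with DESeq2 and 2 in one fit of the 3 tissues. Mouse lung at heat (5) gave 2 with no filter. Mouse muscle at heat (1) gave 2 with RLE scaling, 3 with no filter, 2 without the 10 largest rows, 0 with the replicate block, 5 with DESeq2 and 4 in one fit. Mouse muscle at recovery (0) gave 1 with DESeq2, and between heat and recovery (2) 1 with the replicate block. Bat muscle at recovery (1) gave 2 with the block, 2 with DESeq2 and 0 in one fit, and between heat and recovery (0) 1 with the block and 2 with DESeq2.

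Over all genes, mouse blood between heat and recovery (633) gave 1349 with no filter, 1679 with DESeq2 and 1568 in one fit. Mouse lung at heat (1138) gave 685 with the block, 2161 with DESeq2 and 184 in one fit, and between heat and recovery (2197) 1378 with the block and 427 in one fit. Mouse muscle at heat (76) gave 228, 0, 2607 and 4226 with no filter, the block, DESeq2 and one fit, and between heat and recovery (83) 156, 8, 1211 and 1836, and 55 without the 10 largest rows. Bat muscle at recovery (426) gave 1639 with DESeq2 and 79 in one fit. DESeq2 also called 610 and 62 genes in mouse blood at heat and recovery (0 and 0), 122 and 114 in mouse lung and muscle at recovery (6 and 12), 92 and 119 in bat blood at recovery and between heat and recovery (0 and 0), 19, 910 and 449 in bat lung (0, 9 and 24), and 855 and 211 in bat muscle at heat and between heat and recovery (6 and 1).

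With single libraries left out, the 8 genes called ranged over 0 to 3 in mouse blood at heat, 0 to 5 there between heat and recovery, 2 to 4 in mouse lung at heat, 0 to 5 in mouse muscle at heat, 0 to 2 there between heat and recovery, and 0 to 1 in bat muscle between heat and recovery. All genes called ranged over 0 to 1911 (mouse blood, heat to recovery), 133 to 2175 and 628 to 2942 (mouse lung, heat, then heat to recovery), 0 to 2742 and 0 to 97 (mouse muscle, likewise) and 17 to 375 (bat muscle, recovery). The 8 genes that differed ranged over 0 to 1 between bat muscle and lung at recovery, and between species at heat over 0 to 3 in blood, 2 to 5 in lung and 0 to 3 in muscle. Changes that turned sign were Klf9 in mouse blood (-0.21 to 2.59), Ddit4 and Cebpd in bat lung (-0.26 to 0.090 and -0.65 to 0.17) and Fkbp5 in bat muscle (-0.46 to 0.41), all at heat and none called. The causes were not tested. Where a group was left with 1 library, it was assumed to vary like the others.

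The replicate block changed no call of the 8 other than those counted above and the lung rise of Cebpd (1.70, edgeR adjusted p = 0.0580). Outside the 2 paired bat comparisons the numbers were not taken as pairs. In bat muscle not every library correlated best with its own number. The block was not fitted in mouse blood, where control shares only number 1 with the other groups. Plain totals in place of TMM changed mean levels by factors of 0.779 to 1.40 in mouse blood and moved 11 of 24 levels there by more than their SD. In mouse muscle the factors were 0.870 to 1.15, and 4 of 24 levels moved. There Fkbp5 averaged 36.6 CPM in control and 64.4 CPM in heat on plain totals, against 31.8 and 73.5 CPM with TMM. Klf9 averaged 171 and 175 CPM, against 155 and 200 CPM. In mouse lung and each bat tissue at most 1 of 24 levels moved.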
